A study of Rattus norvegicus with 7 samples.

Results

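The brain of male Wistar rats 5 days (120 hrs) after embolic middle cerebral artery occlusion (eMCAo) was compared with the brain of normal rats, across all genes on the array. In eMCAo a clot prepared from homologous blood is lodged in the artery that supplies the striatum and much of the cortex. Per the labels both groups were male Wistar rats of 280 to 320 g with no drug treatment, the source of both was given as ischemic brain, the normal one included, and 400 ng of total RNA was used for each Illumina rat bead array. The sources used here give neither the part of the brain that was dissected nor the number of animals behind an array. Each group had 1 of the 7 arrays of the series, at its own position on 1 chip, so that position and group cannot be told apart, and the members were chosen by label alone, as all 13793 of 22523 probes that carry a gene symbol. They stood for 13337 genes, each read from its brightest probe. With 1 array a group no test was possible, and no difference could be set against the spread between animals.

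By this time after a stroke the dead tissue is being cleared. Microglia and blood-borne phagocytes divide and take up debris, astrocytes become reactive and form a border, and fibroblasts and vessels lay down matrix. Neurons of the core have been lost, and the striatum, which has few collateral vessels, is the structure that middle cerebral artery occlusion damages most reliably.

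Values are deposited intensities, the brightness of a probe after background subtraction. Folds are the ratio of the 5 day to the normal level after 16 had been added to each background-corrected value and the arrays had been brought to 1 distribution, so that folds of dim genes are understated. A gene was detected when its intensity was above 9.81 on the 5 day array or 9.49 on the normal array, and 8995 and 8656 genes were. For a gene not detected on 1 of the arrays the fold is written as "at least", a bound set by the lowest level detected there, and the measured difference decided whether it was past 2-fold. On the log2 scale the 2 probes of a gene differed by a median of 0.24 in their 5 day minus normal difference, over 193 genes with 2 detected probes, which gives an SD of 0.41 for a probe. Both probes were read on the same 2 arrays, so this SD covers the disagreement of probes. It does not cover the spread between arrays or animals.

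Of the 13337 genes, 853 were at least 2-fold higher at 5 days than normal and detected on either array (6.4% of all genes), and 449 were at least 2-fold lower (3.37%). The larger differences were mostly upward. At 8-fold or more 104 genes were higher and 7 lower, and at 16-fold or more 27 were higher and 0 lower. Of the 853 higher genes, 193 were not detected on the normal array. The genes past 2-fold were 65.5% higher, and without normalization between the arrays they were 82.1% higher. That setting left the median log2 difference of all genes at 0.09, against -0.04 with normalization, so differences near 0 have no settled sign. The plot of difference against level shows genes past the limit over most of the range of levels.

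**Figure D1:**
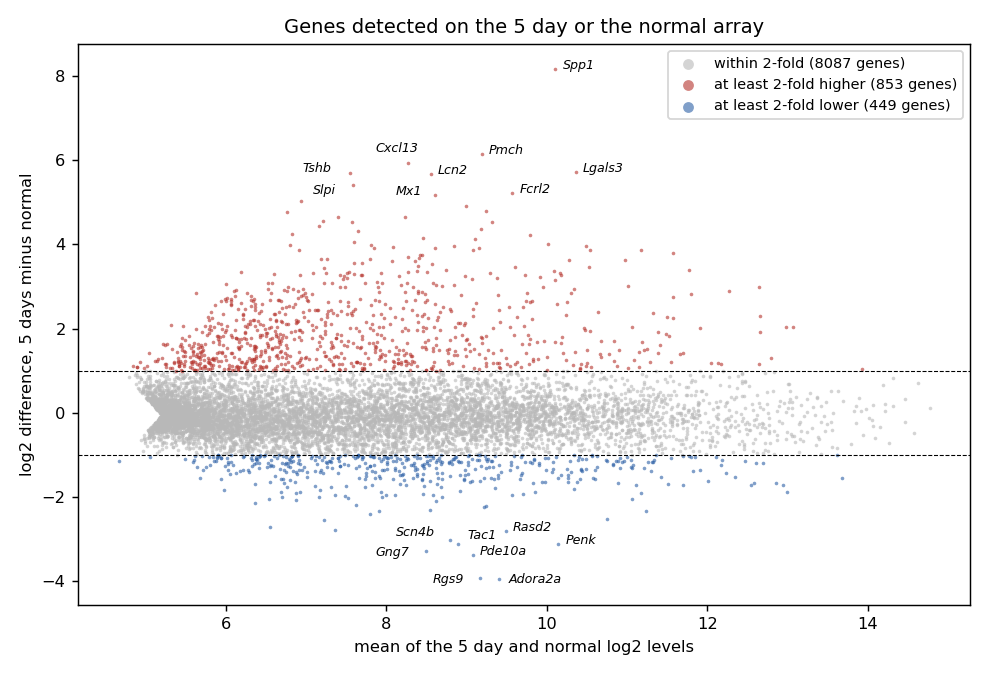
Log2 difference between the 5 day and the normal array (vertical axis) against the mean log2 level of both arrays (horizontal axis) for the 9389 genes detected on either array. Red points are the 853 genes at least 2-fold higher at 5 days, blue points the 449 at least 2-fold lower, and the dashed lines mark 2-fold; Spp1 stands highest and Adora2a lowest.

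The gene furthest above normal was Spp1, which encodes osteopontin, a matrix and cytokine-like protein that phagocytes secrete. Its intensity was 21038 on the 5 day array and 32.9 on the normal array, a 286-fold difference. Lgals3, which encodes galectin-3, a lectin of activated phagocytes, had 10569 on the 5 day array and 137 on the normal array (52.6-fold). Fcrl2, of the Fc receptor-like family, had 5012 on the 5 day array and 87.1 on the normal array (37.5-fold). All 3 were bright on the 5 day array and dim on the normal array. Cxcl13, the chemokine that draws B cells, had 2569.8 on the 5 day array and 11.0 on the normal array (61.5-fold). Lcn2, which encodes the siderophore-binding lipocalin-2, had 2820.2 on the 5 day array and 22.3 on the normal array (51.0-fold). Mx1, an interferon-induced antiviral GTPase, had 2492 on the 5 day array and 32.7 on the normal array (36.3-fold). Further phagocyte genes stood in the same set. The immunoglobulin receptor gene Fcgr3a was 30.1-fold higher (2952 against 57.1), and Ncf1, a cytosolic subunit of the NADPH oxidase, was 27.9-fold higher (3364 against 78.0). Ifitm1, which encodes an interferon-induced membrane protein, was 25.1-fold higher (1579 against 28.6). Of the 15 highest genes 5 were not detected on the normal array. These were Slpi, a leukocyte protease inhibitor (1303 at 5 days, at least 33.2-fold higher), Mmp12, macrophage elastase (586, at least 15.1-fold), Cd8a, a co-receptor of cytotoxic T cells that some rat macrophages also carry (723, at least 18.5-fold), Glipr1 (871, at least 22.4-fold) and Tshb, which encodes the beta chain of thyrotropin (1408, at least 35.6-fold). Pmch, the precursor of the hypothalamic melanin-concentrating hormone, was 71.0-fold higher, and it and Tshb are taken up again with the markers of brain regions.

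The genes furthest below normal were mostly those of the striatal projection neuron. Adora2a, an adenosine receptor of the indirect pathway, had 159.9 on the 5 day array and 2468 on the normal array, 15.6-fold lower. Rgs9, which shuts off G-protein signals of dopamine receptors, had 134 on the 5 day array and 2038 on the normal array (15.2-fold lower). Pde10a, a cyclic nucleotide phosphodiesterase, had 155 on the 5 day array and 1589 on the normal array (10.4-fold lower). All of the 15 lowest genes were detected on both arrays, though Cort at 5 days (9.99) was barely above the limit of 9.81. Gng7, a G-protein gamma subunit, was 9.76-fold lower (98.1 against 1011), and the neuropeptide precursors Tac1 and Penk, of the direct and the indirect pathway, were 8.72-fold (149 against 1296) and 8.64-fold lower (389 against 3065). The sodium channel subunit Scn4b was 8.14-fold lower, the small GTPase Rasd2 7.06-fold, DARPP-32, encoded by Ppp1r1b, 5.75-fold and the adenylyl cyclase Adcy5 5.33-fold. A dimmer probe of Ppp1r1b differed by -0.60 on the log2 scale where the brightest differed by -2.52. The remaining genes of the set were not striatal markers. Arc, an activity-dependent gene of dendrites, was 6.91-fold lower, the interneuron peptide precursor Cort 6.58-fold, the sialidase Neu2 5.88-fold, the vesicle membrane gene Lamp5 5.03-fold and the steroid hydroxylase Cyp11b1 5.02-fold.

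**Figure D2:**
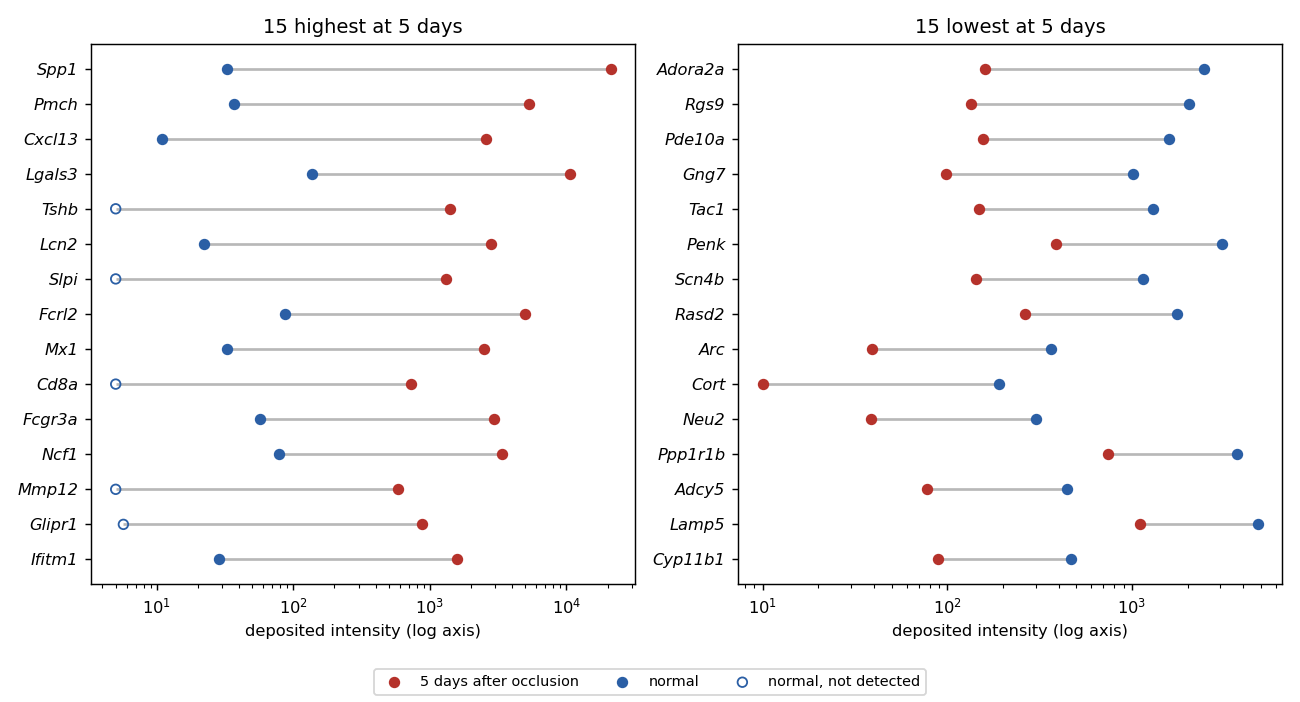
Deposited intensity on a log axis (horizontal) for the 15 genes furthest above and the 15 furthest below normal, in order of their log2 difference. Red points are the 5 day array and blue points the normal array (open where not detected, drawn at 5 where the value was below 5); Spp1 lies at 21038 on the 5 day array and Adora2a at 159.9.

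Gene lists were read over all members with a probe, beside all 13337 genes, whose median log2 difference was -0.04. Some genes stood in more than 1 list and were counted in each. Vip was in the cortical and the interneuron list, Crh in the interneuron and the hypothalamic list, and Pomc in the hypothalamic and the pituitary list. The list of striatal projection neurons had the lowest median of the 58 lists, at -1.44, with 27 of 43 members at least 2-fold lower (3.37% of all genes were) and 0 higher. Fewer surviving neurons and less RNA per neuron cannot be told apart in whole tissue. Genes of signal transduction made up 17 of the 27, out of 21 measured, and receptors 4, out of 12. Ptpn5, a striatum-enriched phosphatase, was 4.28-fold lower (179.6 against 727), and Rgs4 was 4.13-fold lower (1086 against 3948), whereas Rgs2, of the same family, had 2393 on the 5 day array and 2392 on the normal array, a log2 difference of -0.21. The dopamine D1 receptor Drd1 was 4.21-fold lower (32.9 against 189), and the D2 receptor Drd2, which other cells also express, lay at 97.98 against 165 (log2 -0.88), inside the 2-fold limit. Pdyn, the dynorphin precursor of the direct pathway, was 2.62-fold lower (48.9 against 141). Among transcription factors Rxrg was 4.70-fold lower (268 against 1177), Meis2 3.69-fold and Foxp1 2.65-fold, while Ebf1 (log2 -0.40) and Isl1 (-0.28) were dim on both arrays and within 2-fold.

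Markers of other forebrain neurons were also below normal, with smaller medians. Cortical and hippocampal markers had a median of -0.98 and 8 of 19 were at least 2-fold lower. Hpca, which encodes the calcium sensor hippocalcin, had 1241 on the 5 day array and 4049.8 on the normal array (3.76-fold lower), and Neurod6, a transcription factor of pyramidal neurons, was 3.39-fold lower (215 against 676). Prox1, of the dentate gyrus, was near its background on both arrays (log2 0.03). Interneuron and forebrain peptides had a median of -1.04, with 9 of 16 lower. The corticotropin-releasing hormone binding protein Crhbp was 4.58-fold lower (72.9 against 358), Vip 2.91-fold (178 against 480.2) and Cck 2.63-fold (2379.8 against 5267), but calretinin, Calb2, lay at 104 against 85.9 (log2 -0.02) and Npy at 707 against 1039.7 (log2 -0.77). General neuronal markers had a median of -0.88, 4 of 16 lower, with the neurofilament gene Nefm 2.78-fold lower and the surface glycoprotein Thy1 at 1206 against 1337 (log2 -0.32).

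Of the machinery of excitability and synapses, ion channels were lower in the largest number. Of 65 channel genes 28 were at least 2-fold lower and 0 higher, and the median was -0.70. After Scn4b the lowest were potassium channel genes, the modifier subunit Kcnv1 (20.2 against 146, 4.15-fold lower) and Kcnip2 (197 against 733, 4.003-fold lower). The calcium channel and AMPA receptor auxiliary subunit Cacng3 was 3.87-fold lower and the sodium channel Scn1a 3.05-fold. Glutamate receptor and postsynaptic genes had a median of -0.69, with 11 of 33 lower. Grin2a, an NMDA receptor subunit, was 3.69-fold lower (40.0 against 182), Gria2, the AMPA subunit that keeps calcium out, 2.91-fold (1714 against 4198) and the kinase gene Camk4 3.71-fold (28.7 against 152). Genes of the GABA synapse had a median of -0.83, 6 of 17 lower, led by the extrasynaptic receptor subunit Gabrd (169 against 612, 3.81-fold lower). The GABA-synthesising enzymes Gad1 and Gad2 were 2.05-fold and 2.10-fold lower, and were short of 2-fold in 3 and 4 of 7 other settings. Presynaptic genes had a median of -0.54, with 6 of 40 lower, Rims1 of the active zone by 2.94-fold and the fusion protein gene Snap25 by 2.87-fold. Syngr1, of synaptic vesicles, was the exception at 2.91-fold higher (262 against 57.2).

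Activity-dependent genes split. Of 16 immediate early genes 5 were at least 2-fold lower and 1 higher, with a median of -0.45. Besides Arc, the zinc finger gene Egr1 was 3.88-fold lower (388 against 1364), and Egr4, which was not detected at 5 days, was at least 3.30-fold lower. The neurotrophin gene Bdnf, whose transcription follows activity, was 3.12-fold lower (43.3 against 159), and its receptor Ntrk2 2.93-fold (687 against 1777). Fos (148 against 116, log2 0.04) and Junb (log2 0.32) were within 2-fold. Atf3, an injury-induced transcription factor of neurons, was 2.35-fold higher (72.8 against 10.8), and under 2-fold in 1 of 7 other settings.

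Phagocyte surface receptors had the highest median of all lists, 2.64, and 31 of 38 were at least 2-fold higher (6.4% of all genes were) and 0 lower. Of the 31, 4 were not detected on the normal array. All 4 Fc receptor genes, the signalling chain Fcer1g included, were among the 31 higher genes and were detected on both arrays. Trem2, a lipid-sensing receptor of microglia, had 9620 on the 5 day array and 533 on the normal array (14.6-fold), and its adaptor Tyrobp 1307 on the 5 day array and 58.0 on the normal array (13.4-fold). Clec7a, the beta-glucan receptor dectin-1, was at least 11.7-fold higher, the lipopolysaccharide co-receptor Cd14 10.1-fold (610.4 against 27.3) and Tlr2, which senses bacterial lipoproteins, 9.46-fold (1639 against 124). The receptors were not all alike. The haemoglobin scavenger receptor Cd163 was at 14.5 at 5 days, just above the limit, and Marco was not detected on either array, and the efferocytosis receptor Mertk was at 138 against 53.5 (log2 0.77).

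Genes of the microglia list were higher too, at a median of 1.69, 11 of 13, of which 2 were not detected on the normal array. Of its 7 homeostatic markers 6 were higher, all detected on the normal array. Its other 6 genes were growth factors and transcription factors of the lineage, of which 5 were higher, including the 2 not detected on the normal array. Aif1, which encodes the cytoskeletal protein IBA1, had 15324 on the 5 day array and 1661 on the normal array (7.45-fold), the purinergic receptor P2ry12 1031 on the 5 day array and 132 on the normal array (5.70-fold) and the fractalkine receptor Cx3cr1 172 on the 5 day array and 25.5 on the normal array (3.22-fold). Tmem119, also a microglial marker, was within 2-fold (28.03 against 12.8, log2 0.35), but so dim that the added 16 understates its difference. Of the growth factors that keep the lineage, Csf1 was 3.07-fold higher (308 against 65.1) and Il34, which neurons make, was at 18.1 against 28.9 (log2 -0.46). The neuronal ligand of Cx3cr1, Cx3cl1, had 3589 on the 5 day array and 9381 on the normal array, 3.19-fold lower.

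Antigen presentation genes were higher on both branches. Class II genes present peptides to helper T cells, and 9 of 13 were at least 2-fold higher, with a median of 2.07. Of these 2 were not detected on the normal array. RT1-Da, an alpha chain, had 3253 on the 5 day array and 95.5 on the normal array (23.02-fold), the invariant chain Cd74 504 on the 5 day array and 16.03 on the normal array (10.9-fold) and the thiol reductase Ifi30 1558 on the 5 day array and 49.1 on the normal array (17.8-fold). The class II transactivator Ciita was not detected on either array, and RT1-DOa was not detected at 5 days. Of 24 class I and immunoproteasome genes 17 were higher, 2 of them not detected on the normal array, with a median of 1.53, led by the immunoproteasome subunit Psmb8 (2115 against 152, 10.1-fold). The class I chain RT1-A1 was 7.13-fold higher (3531 against 405) and B2m, the light chain shared by all of them, 2.04-fold (25630.2 against 9377). Rat class I genes resemble each other closely, and a probe may have read more than 1 of them. Of 33 genes of the standard proteasome 0 were past 2-fold, and their median was 0.05.

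Interferon-induced genes were higher in 29 of 35 and lower in 0, at a median of 1.84, and 7 of the 29 were not detected on the normal array. Besides Mx1 and Ifitm1 they included Zbp1, a sensor of nucleic acids (473 at 5 days, at least 12.3-fold), the GTPase Ifi47 (971 against 43.4, 12.1-fold), Ifi27l2b, of a family of small interferon-induced proteins (1098 against 67.8, 10.3-fold), and Oasl2, of the oligoadenylate synthetase family (717 against 46.2, 8.55-fold). All 6 sensors and transcription factors of the list were higher, Irf7, which drives interferon genes, by 8.19-fold (861 against 65.8) and the RNA sensor Ifih1 by 2.35-fold (120.2 against 26.3). Isg15 was not detected on either array, and Bst2, which encodes tetherin, lay at 37.9 against 39.6 (log2 -0.25). The factors of the interferon response bind the interferon-stimulated response element, searched here as 2 copies of GAAA with 2 bases between them on either strand in the 250 bases before and 50 after each transcription start. Of the 35 genes 24 matched a RefSeq promoter (GRCr8) and 18 of these 24 (75%) held the letters, against 1034 of all 27457 promoters (3.77%). Of the 18 with the letters 13 were at least 2-fold higher, and of the 6 without them 6 were. The 5 others with the letters were Gbp5, Eif2ak2, Gbp4, Bst2 and Oas1b, and the 6 without them included Mx1, the highest of the list. Oas1a, Oas1b and Oas1i, 3 of the 18, are related copies. The promoters of the 3 genes with the largest differences among the 18 are printed 5′ to 3′, with the match in capitals, to show where it lay before the start. A match is a description of the letters and not of binding. It spanned bases -151 to -142 from the start in Oasl2, -69 to -60 in Irf7 and -31 to -22 in Gbp2, a GTPase that was 5.76-fold higher (447 against 42.6).
Oasl2 (chr12:47383136-47383435, minus strand): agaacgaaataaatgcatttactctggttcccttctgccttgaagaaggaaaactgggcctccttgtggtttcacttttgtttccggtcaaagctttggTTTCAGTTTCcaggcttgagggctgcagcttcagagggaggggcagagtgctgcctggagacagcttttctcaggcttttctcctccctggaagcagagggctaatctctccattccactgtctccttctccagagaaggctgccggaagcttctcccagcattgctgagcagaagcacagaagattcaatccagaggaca
Irf7 (chr1:205799974-205800273, minus strand): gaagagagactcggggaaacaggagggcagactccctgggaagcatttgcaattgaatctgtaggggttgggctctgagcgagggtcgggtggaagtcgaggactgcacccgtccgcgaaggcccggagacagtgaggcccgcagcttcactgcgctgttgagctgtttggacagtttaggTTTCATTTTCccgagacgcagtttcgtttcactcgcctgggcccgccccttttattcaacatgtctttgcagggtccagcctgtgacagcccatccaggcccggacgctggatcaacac
Gbp2 (chr2:234005477-234005776, plus strand): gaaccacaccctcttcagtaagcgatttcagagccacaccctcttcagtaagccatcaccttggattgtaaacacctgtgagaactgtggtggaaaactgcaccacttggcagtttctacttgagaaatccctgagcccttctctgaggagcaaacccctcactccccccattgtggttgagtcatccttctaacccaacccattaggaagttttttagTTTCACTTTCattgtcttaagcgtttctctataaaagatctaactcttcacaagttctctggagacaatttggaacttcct

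Lysosomal genes, which break down what phagocytes take up, were higher in 27 of 39 and lower in 0, with a median of 1.48, and 2 of the 27 were not detected on the normal array. All 9 cathepsin and legumain genes were among them, Ctsc at 1204 against 77.6 (10.2-fold), Ctsd at 3828 against 303 (10.03-fold) and Lgmn at 3787 against 398 (7.72-fold). Grn, the precursor of progranulin, was 16.1-fold higher (4432 against 207) and the glucuronidase Gusb 7.12-fold (984 against 96.0). Members within 2-fold included the membrane protein gene Lamp1 (9500.2 against 5475, log2 0.50), the acid sphingomyelinase gene Smpd1 (log2 0.07) and the calcium channel gene Mcoln1 (log2 -0.61). The E-box of the lysosomal gene network, TCACGTGA, stood in 3 of 29 promoters of the list (10.3%), against 0.867% of all promoters, namely those of Ctsd, Lamp1 and Mcoln1.

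Lipid genes lay on opposite sides of normal by role. Genes of lipid storage and efflux were higher in 10 of 23, of which 2 were not detected on the normal array (median 0.67). The fatty acid binding protein gene Fabp4 was at least 17.8-fold higher (699 at 5 days), the droplet coat Plin2 15.2-fold (2373 against 108) and the cholesterol exporter Abca1 11.7-fold (687 against 25.5), while Apoe, already bright in normal brain, was at 26112 against 13005 (log2 0.67). Genes of cholesterol synthesis had a median of -0.89, with 7 of 20 at least 2-fold lower and 0 higher. The 7 were all enzymes, among them the sterol oxidase Msmo1 (765 against 1888, 2.77-fold lower), squalene synthase Fdft1 (310.3 against 762, 2.73-fold lower) and the isomerase Idi1 (195 against 456, 2.57-fold lower). Of the others, Fdps and Tm7sf2 were each under 2-fold in 4 of 7 other settings, Acat2 in 2 and Cyp51 in 1. Of the regulators, Srebf1 lay above normal (687 against 322, log2 0.79) and Srebf2, the regulator of this pathway, at 29.8 against 43.5 (log2 -0.51). The letters of a sterol regulatory element, TCACNCCAC, were found in 0 of 12 promoters of the enzymes and in 1.13% of all promoters.

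Of 69 genes of DNA replication and cell division 41 were at least 2-fold higher and 0 lower, with a median of 1.41, and 13 of the 41 were not detected on the normal array. They were unevenly spread over the list. Genes of mitosis were higher in 30 of 32, genes of replication in 9 of 25 and genes of cycle control in 2 of 12. Cdk1, the mitotic kinase, had 923 on the 5 day array and 25.5 on the normal array (15.8-fold), cyclin B2, Ccnb2, 1324 on the 5 day array and 59.3 on the normal array (13.4-fold), and Ccna2 was at least 7.42-fold higher. The ribonucleotide reductase subunit Rrm2 was highest, at 816 against 18.2 (16.6-fold), and the subunits of the replicative helicase were divided. Mcm2 was 5.07-fold higher (344 against 35.5), Mcm6 4.47-fold (737 against 119) and Mcm3 at least 4.29-fold, while Mcm4, Mcm5 and Mcm7 were within 2-fold by their brightest probes (log2 0.56, 0.71 and 0.78). The other detected probe of Mcm5 was past 2-fold (log2 1.16). The cyclin-dependent kinase inhibitor Cdkn1b was at 92.7 against 112 (log2 -0.46) and the checkpoint kinase Chek1 at 43.0 against 65.7 (log2 -0.64). Mitotic promoters are known for the cell cycle homology region, TTTGAA, and for CCAAT boxes. Of the 27 mitosis genes with a RefSeq promoter 17 (63.0%) held TTTGAA on either strand, against 18.1% of all promoters, and 20 (74.1%) held CCAAT, against 37.7%. All 17 with TTTGAA and 8 of the 10 without it were at least 2-fold higher. Both genes with the largest differences held it at 2 places, at bases -72 to -67 and -16 to -11 in Cdk1 and at -214 to -209 and -43 to -38 in Ccnb2, and their promoters are shown with these letters in capitals.
Cdk1 (chr20:19265043-19265342, plus strand): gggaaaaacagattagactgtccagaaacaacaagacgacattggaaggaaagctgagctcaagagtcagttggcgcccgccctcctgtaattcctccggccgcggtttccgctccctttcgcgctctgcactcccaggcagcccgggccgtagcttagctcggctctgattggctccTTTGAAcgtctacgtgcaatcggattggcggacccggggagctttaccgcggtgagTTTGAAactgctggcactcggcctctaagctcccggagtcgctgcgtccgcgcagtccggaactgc
Ccnb2 (chr8:79981609-79981908, minus strand): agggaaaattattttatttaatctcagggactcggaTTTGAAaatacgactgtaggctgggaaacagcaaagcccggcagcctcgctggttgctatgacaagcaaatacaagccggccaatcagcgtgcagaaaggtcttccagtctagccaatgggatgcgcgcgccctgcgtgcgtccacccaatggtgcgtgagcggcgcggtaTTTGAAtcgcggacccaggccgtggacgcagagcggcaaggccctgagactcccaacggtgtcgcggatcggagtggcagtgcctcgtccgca

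Extracellular matrix genes were higher in 25 of 47 and lower in 0, at a median of 1.09, with 2 of the 25 not detected on the normal array. Besides Spp1 the highest were Lum, a small proteoglycan of collagen fibrils (1709 against 135, 9.00-fold), the fibrillar collagen Col3a1 (841 against 74.5, 7.35-fold), the calcification inhibitor Mgp (3215 against 422, 6.15-fold) and Col18a1 of basement membranes (216 against 21.6, 4.32-fold). Tenascin-R, Tnr, was at 229 against 292 (log2 -0.58), Bcan at a log2 difference of -0.20 and Vcan at 0.92, and Acan was not detected. The collagen chaperone Serpinh1 was at 60.8 against 85.1 (log2 -0.58). Of proteases and inhibitors 9 of 36 were higher, 5 of them not detected on the normal array. The metalloproteinase inhibitor Timp1 was 17.5-fold higher (2441 against 94.6) and A2m, a broad protease trap, 10.5-fold (1461 against 94.9), whereas Timp3 was at 24.8 against 44.0 (log2 -0.65). Mmp14, which acts at the cell surface, was 4.72-fold higher (819 against 127), and the gelatinase Mmp9 lay at 71.9 against 48.5 (log2 0.14).

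Astrocyte genes of reactivity were higher in part, and those of resting function were not past 2-fold. Of 24 reactive genes 10 were at least 2-fold higher, all 3 intermediate filament genes included, with Gfap at 19856 against 3805 (4.10-fold), Vim at 7266 against 1287 (4.74-fold) and Nes at 149 against 25.6 (2.85-fold). The copper carrier ceruloplasmin, Cp, was 9.69-fold higher (383 against 10.8) and the small heat shock protein gene Hspb1 9.59-fold (2791 against 223). Several of these genes are also made by phagocytes or vessels. Of the 21 secreted and surface genes of the reactive list 7 were higher and 14 were within 2-fold. Among the 14 were Amigo2 (371 against 276, log2 0.13) and Srgn (37.9 against 25.0, log2 0.13). All 20 resting genes were within 2-fold, at a median of -0.36, from the amino acid exchanger Slc7a10 (140.2 against 232, log2 -0.90) to Entpd2, an ectonucleotidase (905 against 473, log2 0.68), with the water channel Aqp4 at 789 against 585 (log2 0.21). Myelin and oligodendrocyte genes were likewise all within 2-fold, 24 of 24, at a median of -0.29. Their lowest was Mobp (2461 against 4153, log2 -0.997), and Mbp was at 4636 against 6691 (log2 -0.74). The precursor proteoglycan Cspg4, which pericytes also carry, was 2.34-fold higher (392 against 125).

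**Figure D3:**
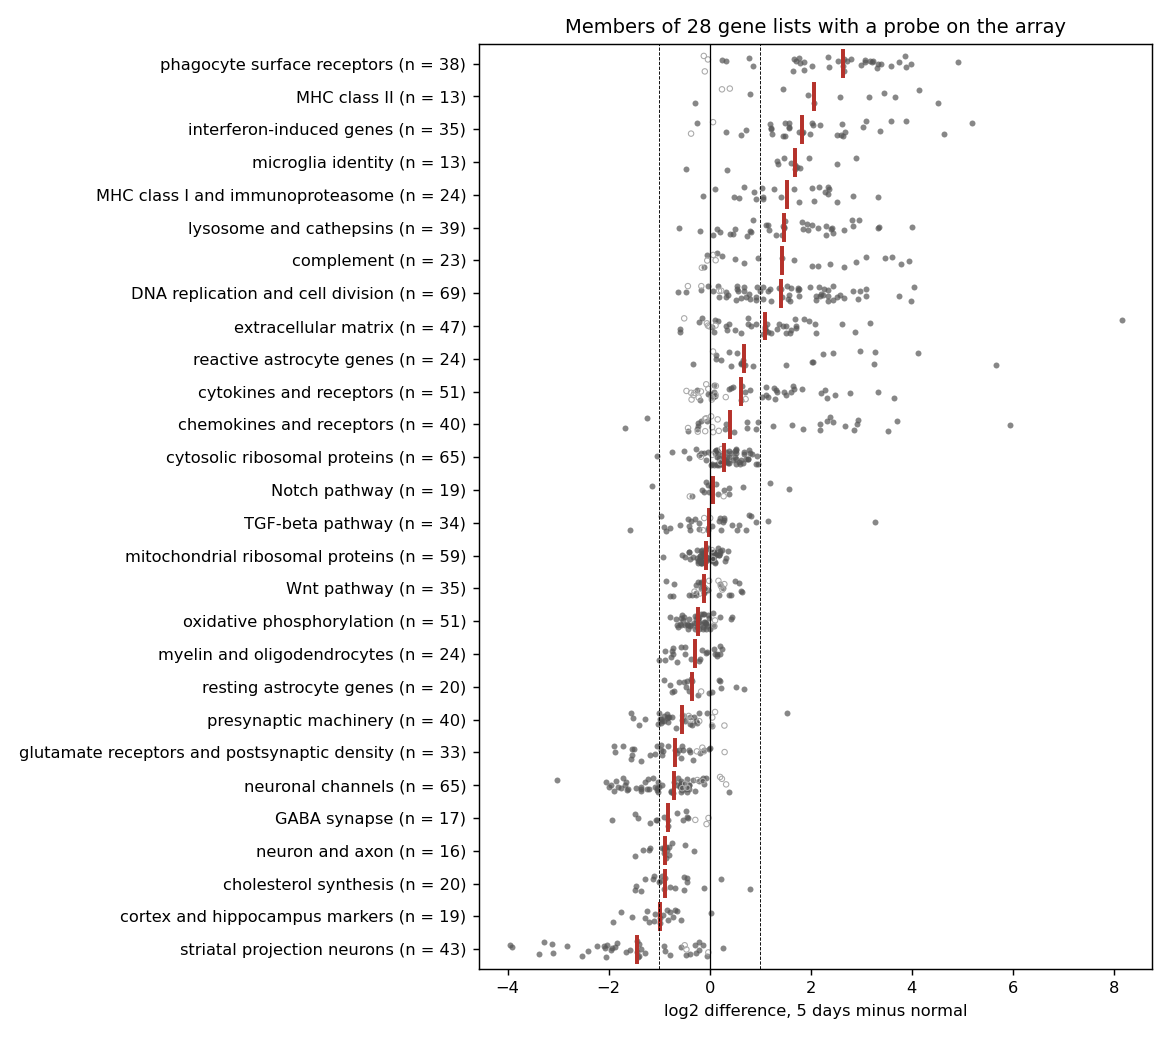
Log2 difference between the 5 day and the normal array (horizontal axis) for every member with a probe of 28 gene lists (vertical axis). Filled points were detected on either array, open points on neither, red bars are list medians and dashed lines mark 2-fold; the phagocyte receptor median lies at 2.64 and the striatal median at -1.44.

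Complement genes were higher in 12 of 23, of which 2 were not detected on the normal array. Of 8 genes of the classical pathway, which tags debris and synapses, 7 were higher, with C1qc at 6083 against 305 (15.5-fold), C1qb at 13015 against 727 (13.8-fold) and C2 at 4628 against 294 (12.3-fold). Its inhibitor Serping1 was 8.48-fold higher (1153 against 94.1), and clusterin, Clu, another inhibitor, was at 11359 against 9201 (log2 -0.06). Of 40 chemokines and receptors 15 were higher, 6 of them not detected on the normal array, and 2 lower, the other beside Cx3cl1 being Ccl27 (103 against 229.8, 2.37-fold lower). The platelet factor Pf4, which macrophages also make, was 13.1-fold higher (1164 against 50.6), the monocyte attractant Ccl2 7.51-fold (289.7 against 10.4) and the receptor Cxcr4 4.53-fold (211 against 18.7), while Ccr2, the receptor of Ccl2, had a log2 difference of -0.22. Of 51 cytokines and receptors 21 were higher, 7 of them not detected on the normal array, and 0 lower. The interleukin-1 system made up 9 of them out of 12, with the inflammasome adaptor Pycard at 813 against 31.1 (12.5-fold), Il1b at 434 against 14.1 (10.02-fold) and Il18 at 647 against 75.5 (5.58-fold). Tnf and Il6 were not detected on either array.

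Defining genes of other blood cells were mostly dim or not detected, and their counts stand beside 6.4% of all genes at least 2-fold higher. Of 15 neutrophil genes 4 were at least 2-fold higher, none of them detected on the normal array, namely Mmp8 (at least 4.80-fold), S100a8 (at least 4.33-fold), Il1r2 and Csf3r. S100a9, the partner of S100a8, and Mpo were not detected on either array. Of 26 lymphocyte genes 3 were higher, Cd8a, Cd8b (173, at least 4.91-fold) and Cd4 (83.0, at least 2.68-fold), which macrophages of the rat can also express. Cd6 (68.6 against 20.5, log2 0.805) and Ctla4 (47.7 against 65.8, log2 -0.546) were detected on both arrays and within 2-fold. Of the T-cell receptor complex, Cd3e was at 17.4 against 27.7 (log2 -0.45), Cd3d and Cd3g were barely above the limit at 5 days, and Gzmb was not detected. The B-cell gene Ms4a1 was not detected on either array.

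Genes of oxidant defence and iron were higher in part. All 5 NADPH oxidase genes, which make superoxide in phagocytes, were higher, 2 of them not detected on the normal array, Cyba by 12.4-fold (7649 against 499), and 3 of 23 antioxidant genes, the metallothionein Mt1 (6301 against 648, 8.02-fold) and the peroxidases Gpx1 (5.27-fold) and Gpx3. Hmox1, which degrades heme, was 15.5-fold higher (1930.2 against 79.8). The ferritin light chain Ftl1 was 3.81-fold higher (14296 against 3059), while the heavy chain Fth1 lay at 31794 against 24268 (log2 0.10). Among energy genes the fructose transporter Slc2a5, a microglial gene, was 9.20-fold higher (2137 against 171), the lactate exporter Slc16a3 5.97-fold (643 against 67.6) and the hexokinase Hk3 of leukocytes 6.44-fold (249.9 against 11.4), with the pyruvate kinase Pkm at 525 against 904 (log2 -0.98). The whole glycolysis and hypoxia list had a median of -0.14, which turned positive (0.07) without normalization between arrays. All 51 oxidative phosphorylation genes were within 2-fold (median -0.22), and so were all 59 mitochondrial ribosomal genes. Of 65 cytosolic ribosomal genes only Rpl30 was past 2-fold (2604 against 4529.7, 2.07-fold lower), which it was not in 3 of 7 other settings, and the median of the list was 0.28.

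The study was also concerned with the Hedgehog, Notch, Wnt and TGF-beta pathways, which act in development and repair. Their counts are given beside the shares of all genes past 2-fold, 6.4% higher and 3.37% lower. Of 34 TGF-beta genes 2 were higher and 1 lower. The ligand Tgfb1 had 545 on the 5 day array and 24.5 on the normal array (9.63-fold), its binding protein Ltbp2 was at least 1.98-fold higher (53.1 at 5 days), and follistatin, Fst, an activin trap, was not detected at 5 days (70.05 on the normal array, at least 2.94-fold lower). The other ligands Tgfb2 and Tgfb3 had log2 differences of -0.36 and 0.05, and the shared mediator Smad4 lay at 1028 against 757 (log2 0.23). Of 19 Notch genes 2 were higher and 1 lower. The sugar transferase Mfng was 2.96-fold higher (640.5 against 161), the protease Adam17, which also releases TNF, 2.28-fold (711 against 243), and the Notch target Hes5 2.21-fold lower (12.7 against 50.7). Notch1 (203 against 132, log2 0.27) and its ligand Jag1 (log2 -0.03) were within 2-fold. All 35 Wnt genes were within 2-fold, from the kinase Gsk3b (245 against 389.6, log2 -0.86) to the receptor Fzd1 (92.3 against 37.8, log2 0.64), with beta-catenin, Ctnnb1, at 1056 against 608 (log2 0.58). Of 8 Hedgehog genes only Hhip, a decoy of the ligands, was detected, at 151 against 303 (2.202-fold lower), and the receptor subunit Smo was not. The Hhip difference was under 2-fold in 4 of 7 other settings, that of Hes5 in 2 and that of Ltbp2 in 1. The medians were -0.01 for TGF-beta, 0.06 for Notch, -0.11 for Wnt and -0.09 for Hedgehog genes, and all but the Notch median turned positive in some settings.

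Markers of brain regions differed between the arrays as well. Neuronal, astrocyte and oligodendrocyte markers were detected on both arrays, as the brain label asks. Of 20 hypothalamic markers 7 were at least 2-fold higher at 5 days and 1, Crh, lower. In order of time from normal through 12, 24, 48 and 72 hrs to 5 and 7 days, Pmch had 36.6, 33.8, 43.6, 109.5, 32.6, 5310.2 and 18.1. The orexin precursor Hcrt, of the same lateral hypothalamus, had 4.34, 9.16, 2.21, 19.0, 27.2, 199.6 and 33.1. The 5 day array was far above every other for both genes. Avp, the vasopressin precursor, was high on other arrays too, with 36.4, 1639, 1301, 58.4, 95.8, 1089 and 1089. Pomc, a precursor shared by the arcuate nucleus and the pituitary, was 4.04-fold higher at 5 days (380.4 against 57.4). Of 10 pituitary markers Tshb and Pomc were higher, and Prl, Cga and Lhb were not detected on either array, although Cga encodes the chain with which the Tshb product forms thyrotropin. The lateral hypothalamic genes are transcribed in few cells of 1 small region, and the amount of this region in each sample is not known. Its part in any other difference, the striatal one included, was not tested.

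The choroid plexus genes Ttr (1936 against 5456, 3.32-fold lower) and Cltrn (14.8 against 68.3, 2.57-fold lower) were below normal at 5 days, while Kl (log2 -0.45) and Folr1 (log2 -0.27) were within 2-fold. Of 8 erythrocyte genes 2 were at least 2-fold lower and 6 were within 2-fold. The 2 were globin genes, Hbb at 83.9 against 205 (2.49-fold lower) and Hba-a1 at 93.1 against 217 (2.42-fold lower). The globin gene Hba-a2 was not detected on either array. The summed intensity of 4 erythrocyte markers, mostly that of Hbb and Hba-a1, was 203 on the 5 day and 446 on the normal array. The summed intensity of 4 microglial markers was 16550 against 1831, and that of 3 macrophage markers 11460 against 201. Single genes made up most of these sums, Aif1 with 15324 against 1661 and Lgals3 with 10569 against 137. The sum of 5 neuronal markers was 10260 against 19560 and that of 5 striatal markers 1422 against 9610. That of 5 fibroblast and meningeal markers was 14390 against 16490, although 4 of them were at least 2-fold higher and 1 lower. Of 5 neutrophil markers 2 were detected on the 5 day array and 0 on the normal array, with S100a9, Mpo and Elane on neither.

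**Figure D4:**
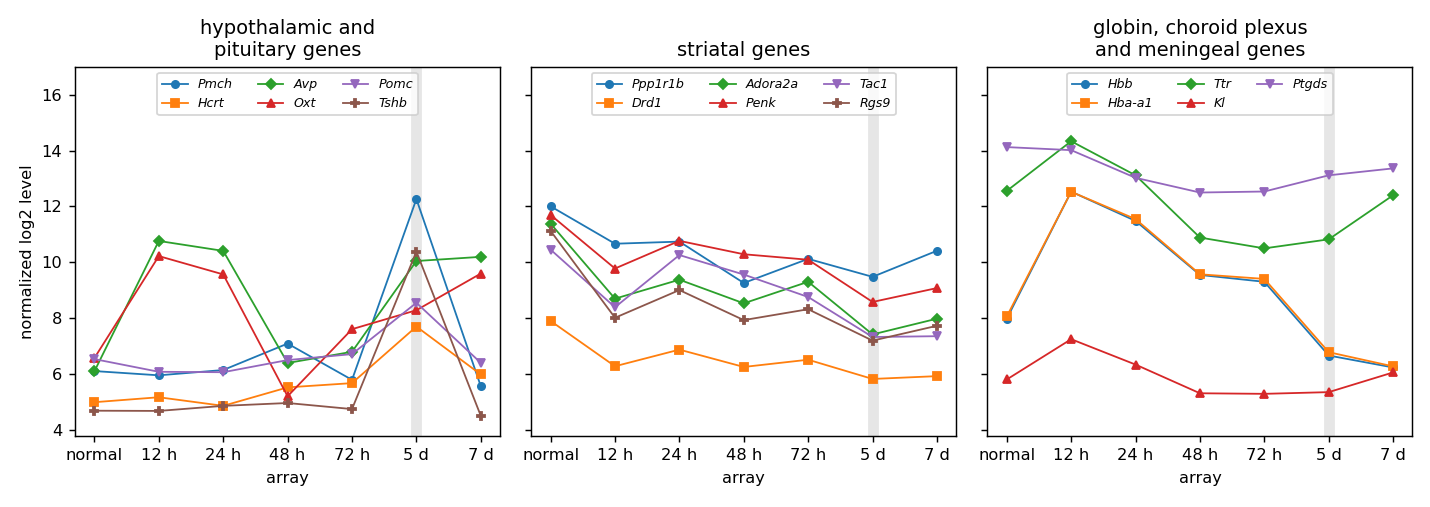
Normalized log2 level (vertical axis) on the 7 arrays in order of time (horizontal axis, the 5 day array shaded) for hypothalamic and pituitary genes, striatal genes, and globin, choroid plexus and meningeal genes. Points are single arrays; Pmch and Tshb are high on the 5 day array only, while Avp is also high at 12 hrs, 24 hrs and 7 days.

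The 5 day array was close to its neighbours in time. Against 72 hrs 79 genes were at least 2-fold higher at 5 days and 52 lower (0.592% and 0.39% of all genes), and against 7 days 174 were higher and 61 lower (1.3% and 0.457%). Against normal, 779 genes were higher and 377 lower at 72 hrs (5.84% and 2.83%), and 461 higher and 84 lower at 7 days (3.46% and 0.63%). The comparisons with normal share the normal array, and those with 72 hrs and 7 days share the 5 day array. In order of 72 hrs, 5 days and 7 days, phagocyte receptors had medians of 2.15, 2.64 and 1.77, and cell division genes 1.74, 1.41 and 0.55. Interferon-induced genes had 0.80, 1.84 and 1.39, so that cell division genes were nearest to normal at 7 days and interferon genes at 72 hrs. The striatal list had -1.19, -1.44 and -0.71, and cholesterol synthesis -0.58, -0.89 and -0.71.

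**Figure D5:**
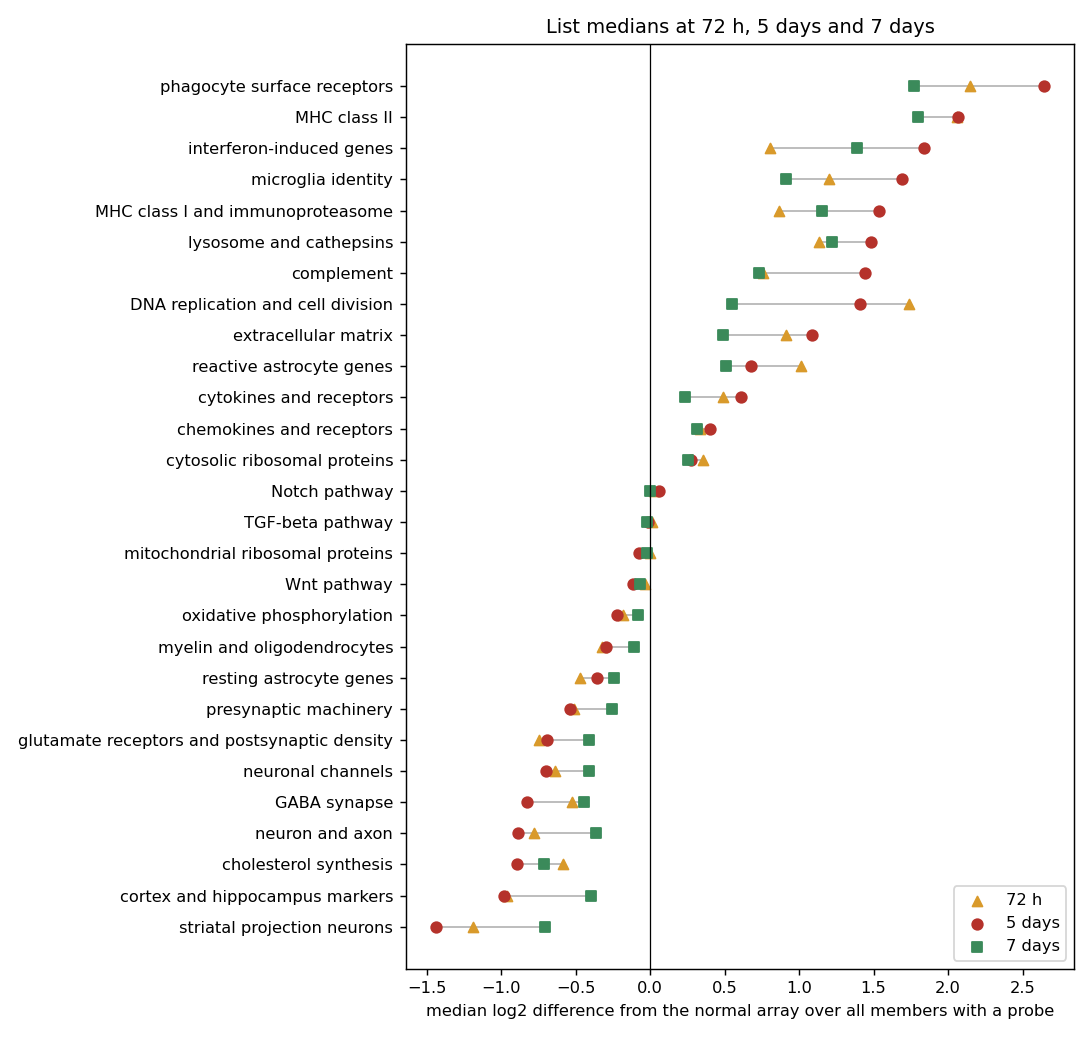
Median log2 difference from the normal array over all members with a probe (horizontal axis) for the same 28 gene lists (vertical axis) at 72 hrs (triangles), 5 days (circles) and 7 days (squares). The 3 medians of a list share the normal array; the striatal median is lowest at 5 days (-1.44) and the interferon median highest at 5 days (1.84).

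A few genes stood apart from both neighbours. Besides Pmch, Tshb, Pomc and Hcrt, the genes furthest above both were Nmu, which encodes neuromedin U (231 at 5 days, against 29.3 at 72 hrs and 14.2 at 7 days), Cxcl13 (2569.8, 771 and 423), the nucleosome binding protein gene Hmgn1 (2783, 1075 and 899) and the transcription factor Maf (566, 222 and 179). Against normal Hmgn1 and Maf were 2.62-fold and 4.32-fold higher. The genes furthest below both were Gng7, Phactr3, Neu2, Rpl30, Alb, Glycam1, Lamp5 and F2r. Phactr3, a phosphatase regulator of neurons, had 219 at 5 days, against 463 at 72 hrs and 458 at 7 days, and F2r, the thrombin receptor, had 300.3, 1048 and 491. Glycam1, which encodes a mucin-like ligand of L-selectin, had 41.0, 104 and 151. Against normal, F2r and Glycam1 were within 2-fold at 5 days (log2 -0.73 and 0.14). These genes were picked for their distance from both arrays, and no array was repeated.

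Probes of a gene did not always give the same difference. Of the 193 genes with 2 detected probes, 21 had 1 probe past 2-fold and 1 not, and 0 had probes past 2-fold in opposite directions. The widest gap was that of Arhgap9 (log2 -0.22 and 2.22), and its probes, like those of Angptl4 (1.87 and -0.27), had opposite signs. Wide gaps were also seen in Havcr2, which encodes TIM-3 (log2 2.45 and 0.19), and in the mitotic kinesin Kif11 (2.93 and 0.67). For Havcr2 the brighter probe gave the smaller difference.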

How the data were processed

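Gene expression was measured on 7 Illumina rat bead arrays, 1 per group. The deposited values are AVG_Signal intensities, and per the submitters' processing notes the authors used GenomeStudio 1.8.0. On the 5 day array 21.3% of probes were below 0 and on the normal array 21.9%, as background subtraction leaves them. The background subtraction and the scaling to a ribosomal RNA that the methods name are not tied to these arrays in the sources used here. A non-normalized table also holds 48 columns of 12 arrays whose names match no sample, and these were not used.

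The intensities were corrected with limma's normexp (limma 3.58.1, R 4.3.3), 16 was added, log2 was taken, and the 7 arrays were quantile normalized. The log2 values were thus computed from the deposited intensities. Probes were named by GEO's platform annotation (13793 with 1 symbol, 0 with several, 8730 with none), 13297 of the gene identifiers stood in the RefSeq table, and the brightest probe stood for its gene. A probe was detected above the 98th percentile of the negative values mirrored about 0. Differences were called at 2-fold with detection on either array, with no test, since each group held 1 array. For the same reason the t-test of the methods was not run. The text names the 15 genes furthest from normal in each direction, members of the lists, and the 8 genes furthest above or below both neighbouring times. List counts and medians cover all members with a probe. The members, lists and rules were chosen with earlier results of these data known. The steps were tested on simulated data. Promoters came from RefSeq (GRCr8). Other normalizations, offsets, detection limits, probe rules and a 1.5-fold limit were tried. The number of arrays limits the precision.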

Additional observations from a re-analysis of the deposited data

Results flagged for a closer look

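The globin genes of red cells, Hba-a1 and Hbb, lay on opposite sides of normal at 5 days and at 72 hrs. The log2 difference of Hba-a1 from the normal array was -1.28 at 5 days and 1.34 at 72 hrs, with intensities of 93.1 at 5 days and 746 at 72 hrs, against 217 on the normal array. That of Hbb was -1.32 at 5 days and 1.32 at 72 hrs, with intensities of 83.9 at 5 days and 695 at 72 hrs, against 205 on the normal array. Both differences share the normal array, and with 1 array a time the difference between the times was not tested.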

How the results depend on the processing

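No paired analysis was possible because each group held 1 array. With a limit of 1.5-fold 1458 genes were higher and 1368 lower at 5 days (51.6% of these higher). Without normalization between arrays 235 genes were lower (82.1% of the genes past 2-fold higher), without background correction and normalization 80.5% were higher, and with an offset of 50 293 genes were lower. The other settings left both counts within 1.5 times 853 and 449. Of 3255 values of 465 named genes under 7 alternatives 2823 moved by less than 1 SD of a probe, 432 by more, and 0 of those past 2-fold changed sign. Of the genes given as past 2-fold, Cltrn, Ifih1, Ccl27, Csf3r and Crh were also under it in 1 alternative each. Of 58 list medians 9 changed sign. Under median scaling the TGF-beta median was 0.064, the mitochondrial ribosome 0.023, the thalamus 0.038 and the neutrophil median -0.027. Without normalization they were 0.18 for TGF-beta, 0.052 for Wnt, 0.073 for glycolysis and hypoxia, 0.068 for heat shock, 0.139 for the mitochondrial ribosome, 0.089 for neural precursors and 0.154 for the thalamus. Without background correction and normalization they were 0.017 for Hedgehog, 0.197 for TGF-beta, 0.044 for Wnt, 0.073 for glycolysis and hypoxia, 0.068 for heat shock, 0.139 for the mitochondrial ribosome, 0.097 for neural precursors and 0.164 for the thalamus, and with the mean of the probes 0.007 for TGF-beta. The cause of these changes was not tested. With 1 array a group the spread between animals, dissection and chip positions was unmeasured, and genes near the detection limit have only bounds.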
